A study of Mus musculus with 8 samples.

Results

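The H3K9me3 map of mouse embryonic fibroblasts (MEFs) consisted of 27108 genomic regions, out of 98931 regions that the 3 deposited lists of the series hold together. Every row of the H3K9me3 list was taken as a member, so no measured threshold of this report decided which regions entered. The series comprised 8 ChIP-seq samples in 4 groups of 2 (input chromatin and immunoprecipitations of H3K9me1, H3K9me2 and H3K9me3), all from MEFs of wild-type genotype, and the H3K9me3 list stands for 2 immunoprecipitated samples read against 2 input samples. The cells were the line E1c, a single clone selected for high Cre activity, in which the conditional Eset1 (Setdb1) allele was present but not deleted. All groups therefore shared that floxed allele and that clonal origin. The input samples are sonicated chromatin that went through no antibody step, and no list of their own was analysed here.

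H3K9me3 is trimethylation of lysine 9 on histone H3. It is written mainly by Suv39h1 and Suv39h2 at constitutive heterochromatin and by Setdb1 at silenced transposons and other sequence-directed targets, often through KRAB zinc finger proteins that recruit Trim28, and it is bound by the HP1 proteins Cbx1, Cbx3 and Cbx5. In differentiated cells the mark is known to cover satellite repeats, endogenous transposable elements, one parental copy of imprinted control regions, clustered zinc finger genes and wide domains that hold genes of other lineages.

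Each row of the list gave a chromosome, a start and an end on GRCm38 (mm10), with no score, no sample and no replicate. Each region consisted of whole bins of 0.75 kb. The values below are therefore single values of 1 pooled list with no replicate error and no test, and the read depth behind them is unknown. Where a 95% Wilson interval is given for a share of genes, copies or promoters, it covers counting error only, because neighbouring genes and repeat copies are not independent.

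Regions were few on some chromosomes and dense on others. A total of 10 chromosomes (2, 5, 8, 9, 10, 11, 14, 15, 17 and 19), each with at least 5% of its assembled bases covered, are called broadly covered here, and the 11 others are called sparsely covered. The broadly covered chromosomes made up 44.98% of the assembly and held 91.5% of the covered length, with 23.2% of their bases covered against 1.76% elsewhere. Chromosome 10 was the most covered at 58.8% and chromosome 2 the least covered of this class at 6.32%, whereas the sparse class ran from 4.28% on chromosome 1 to 0.00511% on chromosome Y, which held 1 region. The H3K9me1 and H3K9me2 lists differed between the same chromosomes: 26.3% of broad and 0.965% of sparse bases were covered by H3K9me1, and 20.5% and 0.453% by H3K9me2. The part that calling each list played in this contrast was not tested, so the classes are described separately below.

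Most regions were a few kilobases wide, but most covered sequence lay in wide ones. Regions of 2.25 to 4.5 kb were 31.6% of the list and regions of 5.25 to 9.75 kb were 28.2%, while single-bin regions of 0.75 kb were 5.33%. The commonest width was 3 bins, with 2395 regions of 2.25 kb. Widths averaged 11.2 kb against a median of 5.25 kb, and the 2709 widest regions, 9.99% of the list, held 50% of the covered length. The widest 1% (271 regions) alone held 16.4% of it. Regions of at least 50 kb numbered 899 and held 30.6% of the H3K9me3 length, a share that was 40.1% after joining regions up to 1.5 kb apart and 55.2% after joining those up to 5 kb apart. The shares in regions of this width, without joining, were 12.02% in the H3K9me1 list and 18.1% in the H3K9me2 list, values that are set side by side without a test.

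**Figure D1:**
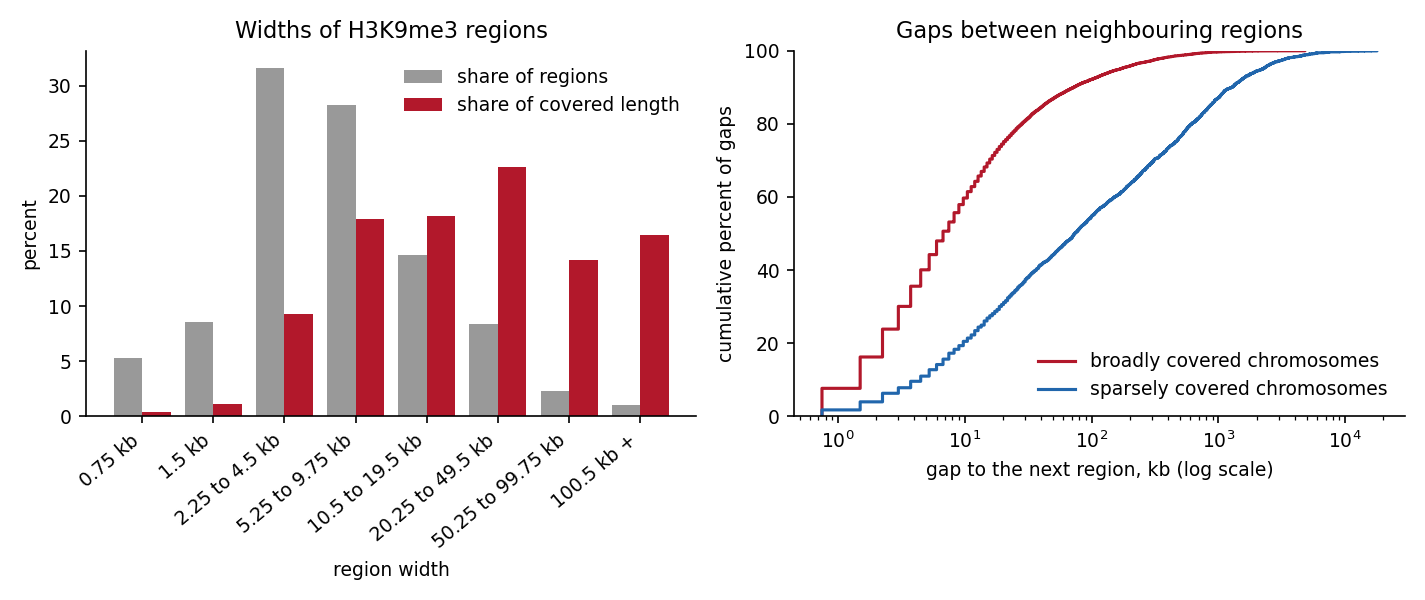
Left, share of the 27108 regions (grey bars) and of the covered length (red bars), in percent, by region width. Right, cumulative percent of gaps between neighbouring regions by gap length in kb on a log scale, for broadly (red) and sparsely (blue) covered chromosomes. Regions under 10 kb are the larger part of the list and wide regions the larger part of its length, and the median gap is 6.75 kb on the broad against 73.5 kb on the sparse chromosomes.

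The 10 widest regions all lay on chromosomes 2, 5, 15 and 17. The widest, chr2:169004251-170043000, spanned 1038.75 kb over Gm11011 and Tshz2, a homeodomain zinc finger gene. The next were chr15:73788001-74535000 (747 kb), over Mroh5, Gm6569 and Adgrb1, and chr5:128019751-128722500 (702.75 kb), over Tmem132d, the Wnt receptor gene Fzd10 and the germline PIWI gene Piwil1. Chr15:86499751-87144750 (645 kb) held no whole or partial protein-coding gene, and chr2:179174251-179778750 (604.5 kb) covered Cdh4, which encodes a cadherin of the nervous system. Tmem132b, Lrfn2 and the group Ccdc60, Hspb8 and Srrm4 lay in regions of 575.25, 541.5 and 454.5 kb, and a region of 461.25 kb on chromosome 15 held no protein-coding gene. The soft-masked share of the 10 regions, the part of the reference written in lower case as repeats, was low, from 17.2% to 29.95%. Of these 10 regions 9 had a GC share of 44.9% to 49.6%.

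Neighbouring regions lay close together. On the broadly covered chromosomes the median gap was 6.75 kb and 59.7% of gaps were at most 10 kb, whereas on the sparse ones the median was 73.5 kb and 20.5% were at most 10 kb. Gaps over 1 Mb numbered 82 on the broad and 374 on the sparse chromosomes. The longest on a broad chromosome was 4.81 Mb, at chr11:93801751-98613000, and the next 4 were on chromosome 2. The standard deviation of the gaps divided by their mean was 2.07 to 2.73 on the 10 broadly covered chromosomes and 0.968 to 2.25 on the 10 other chromosomes with more than 1 region, where a value of 1 is that of regions placed independently along a line.

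Covered bases kept covered neighbours over long distances. On the broadly covered chromosomes, a base lying 0.75 kb from a covered base was covered in 93.4% of cases, and at 15 kb this was 66.7%. The value was 49.8% at 300 kb and 40.7% at 1500 kb, against 35.6% for these chromosomes when each is weighted by its covered length. It stood above the chromosome's own level on 10 of 10 chromosomes at all distances examined up to 1500 kb, and on 8 of 10 at 3000 kb.

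Joining regions across gaps of at most 10 kb gave 12071 clusters. Of these 7794 (64.6%) were 1 isolated region, and the 107 clusters of 20 or more regions, all on broadly covered chromosomes, held 20.1% of the covered length. Regions were wider in larger clusters: the median region was 4.5 kb among isolated regions and 9.75 kb in clusters of 20 or more, and 87.1% of the bases spanned by those clusters were covered. A total of 32 clusters spanned at least 1 Mb, 31 of them on broad chromosomes.

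The clusters with most regions covered single long genes or groups of genes. The most regions, 54, were reached by 3 clusters, the one over Pcdh15 on chromosome 10 (chr10:72679501-74676000, 93.9% covered), the one over Ctnnd2 on chromosome 15 (chr15:29833501-31044000, 85.9% covered), and one on chromosome 10 that held Sim1, a hypothalamic transcription factor gene, and Rfx6, a transcription factor gene of pancreatic endocrine cells, with 5 other genes. Another 3 clusters tied at 49 regions, over Iqcm on chromosome 8, over Tbc1d32 on chromosome 10, and over Ccdc6, Mrln, Slc16a9, Fam13c, Phyhipl and Bicc1 on chromosome 10. The longest cluster, chr15:86499751-88683750, spanned 2184 kb with 11 regions, was 99.2% covered and held Fam19a5 and Zdhhc25. Sall1 and Tox3 shared a cluster of 1785.75 kb on chromosome 8 that was 97.4% covered.

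The sequence under the regions differed between the classes of chromosome. On the sparsely covered chromosomes the regions were 49.6% soft-masked and 45.4% GC with 14.1 CpG per kb, against 39.2%, 41.1% and 7.64 outside them. On the broadly covered chromosomes the same quantities were 35.5%, 42.9% and 9.16 inside and 31.9%, 42.1% and 8.79 outside. CpG, a cytosine followed by a guanine, is the site of DNA methylation and is depleted in most of the mouse genome.

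On the sparse chromosomes repeat content followed width. Regions of 2.25 to 4.5 kb had a median soft-masked share of 80.2% and those of 5.25 to 9.75 kb of 81.3%, with medians of 18.4 and 18.7 CpG per kb. Those of 20.25 kb and more had 28.5% and 10.1. A total of 1240 of the 2912 sparse-chromosome regions (42.6%) were at least 80% soft-masked, against 2727 of 24196 (11.3%) on the broad chromosomes. The share was 83.6% on chromosome 16, 85.4% on chromosome 18 and 71.0% on chromosome 6, and it was 5.54% on chromosome 10.

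These repeat-filled regions were spread more evenly over the chromosomes than the others. Leaving out chromosome Y, regions that were at least 80% soft-masked occurred at 0.196 per Mb on chromosome X to 3.27 per Mb on chromosome 15. Regions below that share occurred at 0.0686 per Mb on chromosome 18 to 42.0 per Mb on chromosome 10. On chromosomes 3, 6, 7, 16, 18 and X the repeat-filled regions were the more numerous of the kinds, and on the 14 others they were the fewer.

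**Figure D2:**
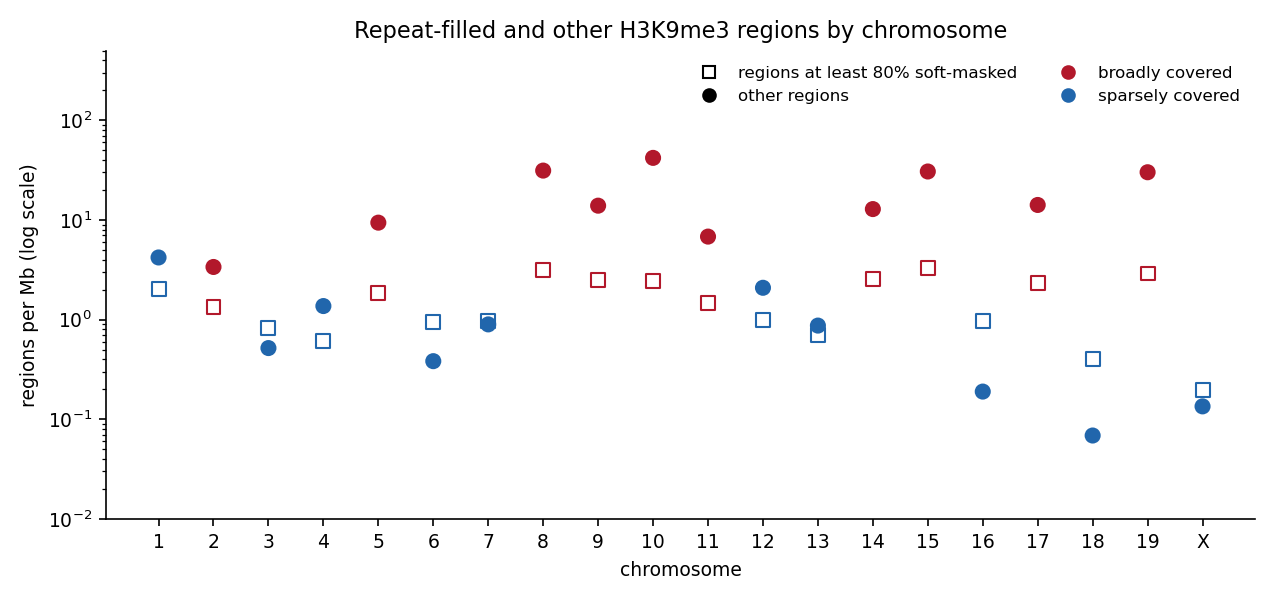
Number of H3K9me3 regions per Mb of assembled sequence (log scale) on each chromosome except Y, for regions that are at least 80% soft-masked (open squares) and for all other regions (filled circles), in red on broadly and blue on sparsely covered chromosomes. Squares range from 0.196 to 3.27 per Mb and circles from 0.0686 to 42.0 per Mb.

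Some regions of the sparse chromosomes shared sequence with each other. All 30-base words were counted over the 2870 regions of the sparse chromosomes other than 18 and Y, and 10452 words with at least 20 different trinucleotides occurred in 100 regions or more. The share of all copies of such a word on those chromosomes that lay inside regions ran from 0.796% to 82.9%, with a median of 58.4%, and 1944 words were under 10%. From the 6112 words with at least 50% of copies inside, 5 were taken one after another, each time the word found in most of the regions that held none of the earlier ones. They are shown because they are the stretches of DNA that these regions share, and no letter is capitalised since none stands apart from the rest.
Word 1: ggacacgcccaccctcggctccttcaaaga
Word 2: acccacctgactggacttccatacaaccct
Word 3: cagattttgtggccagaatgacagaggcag
Word 4: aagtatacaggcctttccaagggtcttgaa
Word 5: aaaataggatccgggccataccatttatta
On chromosome 6 of GRCm38.p6, the reference used here, one copy inside a region lies for word 1 at chr6:3190453-3190482 (plus strand), for word 2 at chr6:3253739-3253768 (plus), for word 3 at chr6:3189991-3190020 (minus), for word 4 at chr6:3190991-3191020 (minus) and for word 5 at chr6:3651949-3651978 (plus). None of these 5 copies lies in an annotated gene, and words 1, 3 and 4 fall in 1 region of 16.5 kb.

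Word 1 was found in 530 sparse-chromosome regions. Words 2 to 5 added 99, 45, 11 and 6 regions that held no earlier word, so that 691 of the 2870 regions (24.1%) held at least 1 of the 5. The share was 29.1% among regions of 2.25 to 9.75 kb, 10.9% among wider ones and 9.91% among those of 0.75 to 1.5 kb. Every copy of the 5 words on either class of chromosome was soft-masked. The files used here give repeats only as lower-case sequence and not by family, so no family is named.

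On the broadly covered chromosomes, whose regions had no part in choosing the words, nearly all copies were covered. Word 1 had 667 of 704 copies inside regions there (94.7%, Wilson interval 92.8% to 96.2%), and the 4 other words had 89.6% to 92.9%. On the sparse chromosomes word 1 had 533 of 788 copies inside (67.6%) and the others 53.5% to 57.1%, shares over 50% that the choice of the words fixed. Chromosome 8 had 388 of its 392 copies of the 5 words inside regions and chromosome 10 had 380 of 387. These copies lay in 124 and 122 regions, so that many regions held several of them. The copies were also covered on broad chromosomes where other sequence mostly was not: 82.3% on chromosome 2, 88.5% on chromosome 11 and 90.1% on chromosome 14, which had 6.32%, 8.88% and 10.97% of all bases covered.

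Among the sparse chromosomes, chromosome 1 had 89.6% of its 614 copies inside regions, chromosome 7 had 68.7% and chromosome 13 had 47.9%. Chromosome X had 61 of 543 copies inside (11.2%). Copies between genes and within genes were covered at 58.7% and 56.3% on the sparse and at 93.6% and 88.4% on the broad chromosomes. How reads that match many copies were placed is not given in the sources used here, and its part in these shares was not tested.

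**Figure D3:**
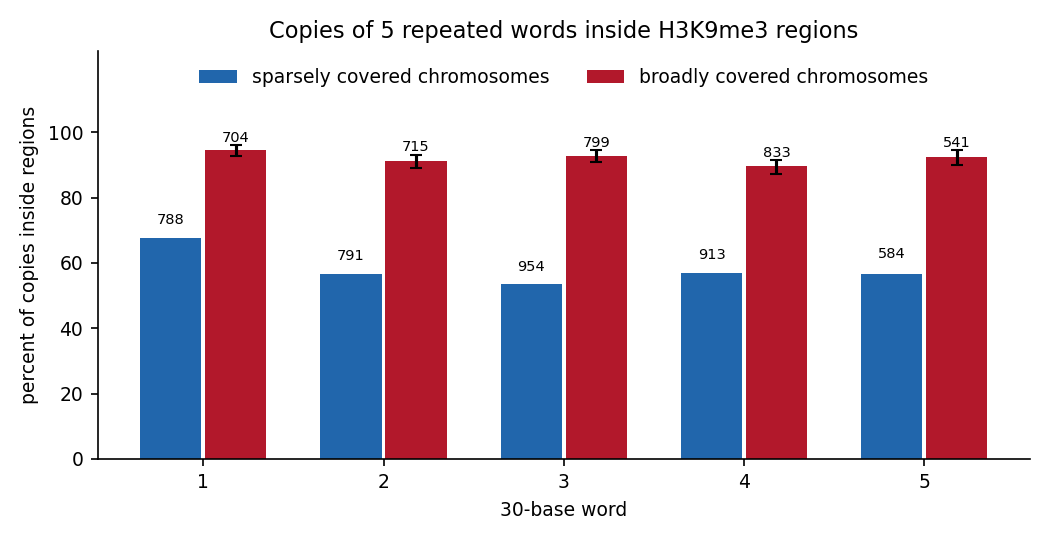
Percent of all reference copies of each of the 5 words that lie inside H3K9me3 regions, on sparsely (blue) and broadly (red) covered chromosomes. The number above each bar is the count of copies, and error bars are Wilson intervals, drawn for the broad chromosomes alone because the words were chosen for at least 50% of copies inside on the sparse ones. Red bars stand between 89.6% and 94.7% and blue bars between 53.5% and 67.6%.

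Bodies of protein-coding genes were covered less than intergenic sequence on 10 of 10 broadly covered chromosomes, though the shares were close on chromosome 17 (21.9% and 22.6%). On the broadly covered chromosomes 12.8% of exon bases and 19.6% of intron bases of protein-coding genes were covered, against 26.4% of intergenic bases and 27.6% of bases that lie in other genes only. Exons were less covered than introns and introns less than intergenic sequence on 9 of 10 chromosomes, the exception being chromosome 17, with 12.3%, 23.2% and 22.6%. On chromosome 11 intron and intergenic shares were close, at 8.72% and 9.04%, with 4.41% for exons. Over all chromosomes, 5246 of the 55413 annotated gene starts (9.47%) lay inside regions, as did 1477 of 21938 protein-coding starts (6.73%). The protein-coding share was 11.4% (1307 of 11475) on the broad and 1.62% (170 of 10463) on the sparse chromosomes. For other kinds of gene on the broad chromosomes it was higher, but by unlike amounts. It was 13.6% for antisense and 15.5% for miRNA genes, 26.2% for lincRNA genes, 28.8% for processed and 27.6% for unprocessed pseudogenes. Of all bases of these chromosomes 23.2% were covered.

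The CpG content of the start went with a steady fall in coverage of protein-coding starts. The ratio of observed to expected CpG within 500 bp of the start was used to sort the 11475 genes of the broad chromosomes. Starts with a ratio under 0.2 lay inside regions in 21.1% of cases (525 of 2484), those of 0.4 to 0.6 in 12.4%, and those of 0.8 and more in 3.35% (83 of 2479, Wilson interval 2.71% to 4.13%). In all, 18.9% of CpG-poor starts (under 0.4) and 5.198% of CpG-rich starts (0.6 and more) lay inside. CpG-poor starts were covered more often than CpG-rich ones on 10 of 10 chromosomes. On chromosome 10 the shares were 66.7% and 8.71%, on chromosome 15 they were 44.8% and 9.86%, and on chromosome 2 they were close, at 3.12% and 2.74%.

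Coverage fell at CpG-rich starts and recovered over a long distance. Within 0.5 kb of a CpG-rich start 5.17% of bases were covered, against 9.68% at 4 to 5 kb upstream and 13.5% at 45 to 50 kb upstream. At 4 to 5 kb downstream, inside the gene, the value was 6.76%, lower than at the same distance upstream. Around CpG-poor starts the corresponding values were 18.9% at the start and 20.8% at 45 to 50 kb upstream. Next to gene ends the change was smaller, with 8.35% within 0.5 kb of the end of genes with CpG-rich starts and 9.16% at 4 to 5 kb beyond it, and it reached 14.2% at 45 to 50 kb beyond.

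**Figure D4:**
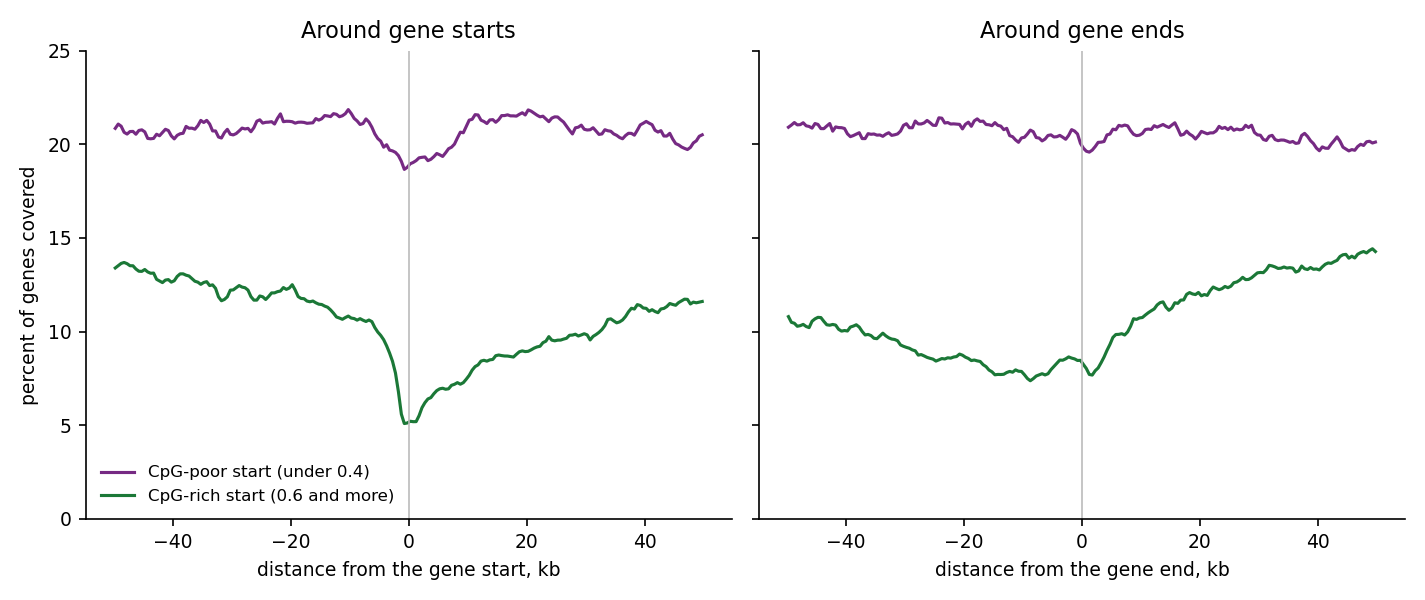
Covered share, in percent, in 0.5 kb steps at distances of up to 50 kb from the start (left) and the end (right) of protein-coding genes on broadly covered chromosomes. Negative distances are upstream of the start, or before the end in the direction of the gene, and lines separate genes with CpG-poor (purple) and CpG-rich (green) starts. The green line drops to 5.09% next to the start and the purple line does not go below 18.7% there.

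RefSeq promoter windows, which run from 250 bases before to 50 after a gene's start, showed the same on sequences rather than ratios. A window wholly inside a region on a broad chromosome held a median of 4 CG dinucleotides (2396 windows), and a window wholly outside held a median of 9 (14630 windows). Of the inside windows 21.1% had at least 10 CG, against 49.99% of the outside windows. A pair of inside windows of unlike kind is printed here with each CG in capitals, on the strand of the gene and from GRCm38.p6. The window of Nkx6-1, a homeobox gene of pancreatic and neural progenitors and one of the study's examples, has 40 CG (chr5:101664662-101664961, minus strand), and a window within Pcdh15, a protocadherin gene of inner ear hair cells, has 8 (chr10:73821617-73821916, plus strand).
Nkx6-1: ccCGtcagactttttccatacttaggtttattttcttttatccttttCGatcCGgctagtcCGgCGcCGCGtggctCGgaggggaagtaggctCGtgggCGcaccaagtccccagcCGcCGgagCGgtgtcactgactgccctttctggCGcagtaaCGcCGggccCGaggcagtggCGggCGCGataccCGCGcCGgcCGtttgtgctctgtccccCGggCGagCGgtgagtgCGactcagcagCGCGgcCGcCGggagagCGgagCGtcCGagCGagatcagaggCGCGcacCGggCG
Pcdh15: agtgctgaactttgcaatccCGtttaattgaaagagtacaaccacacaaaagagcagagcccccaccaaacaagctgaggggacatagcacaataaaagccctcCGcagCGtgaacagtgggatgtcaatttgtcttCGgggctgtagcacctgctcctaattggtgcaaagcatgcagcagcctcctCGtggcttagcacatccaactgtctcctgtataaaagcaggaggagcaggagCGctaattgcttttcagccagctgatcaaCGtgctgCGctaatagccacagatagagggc
Windows like that of Nkx6-1 were the exception among the covered ones, and the Pcdh15 window is nearer to their median.

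Coverage also differed with gene length and with position in the gene. Protein-coding genes of at least 300 kb on the broad chromosomes had 29.2% of their bases covered and 82.4% of these 273 genes had at least 1 covered base, whereas genes of 20 to 50 kb had 10.95% and 26.9%. For all protein-coding genes of the broad chromosomes the share with any covered base was 27.0%, and for those of the sparse chromosomes it was 4.64%. In genes of 10 to 50 kb, divided into 10 equal parts, coverage rose from the first part of the body (8.46%) to the last (12.4%). In genes of 200 kb and more it was 27.2% in the first part and 25.9% in the last. Among 9904 genes with several exons, 9.72% of first-exon, 11.3% of internal-exon and 14.3% of last-exon bases were covered.

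Genes named here for the longest covered lengths are long by that choice, since covered length cannot exceed gene length. Pcdh15 had 1458 of its 1550 kb covered (94.1%), and Ctnna3, which encodes a catenin of heart and testis, had 1241 of 1574 kb (78.9%). Anks1b, a postsynaptic protein gene, had 1039 kb covered, or 94.4% of its length, and Auts2, a neurodevelopmental gene, had 1031 kb, or 93.2%. Starts of Pcdh15 and Auts2 lay inside regions and those of Ctnna3 and Anks1b did not. Not every long gene was covered: Pcdh9 (877 kb), the receptor phosphatase gene Ptprg (689 kb), Arhgap15 (647 kb), Cdk14 (617 kb) and Frmd4a (596 kb), the 5 longest protein-coding genes of the broad chromosomes without a covered base, lay on chromosomes 14, 2 and 5.

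Gene families differed widely in how often their starts and ends lay inside regions, and members of a family usually sit side by side, so that 1 wide region can hold several. On the broad chromosomes the shares for all protein-coding genes were 11.4% of starts and 13.4% of ends. None of 79 ribosomal protein genes and none of 20 genes of the H3K9 pathway (among them Suv39h1, Setdb1, Ehmt2, Trim28, Dnmt1, Cbx5, Atrx, Kdm4a and Uhrf1) had a single covered base on any chromosome. Of the ribosomal protein genes 40 and of the pathway genes 12 were on broad chromosomes. Of all protein-coding genes, 27.0% on the broad and 4.64% on the sparse chromosomes had a covered base. On the broad chromosomes that share was 18.3% for genes under 5 kb and 82.4% for those of at least 300 kb, and 5.198% of CpG-rich starts lay inside. A background matched for length and CpG content was not computed for these lists.

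Other families had larger shares. Alpha and beta defensin genes, which encode antimicrobial peptides of gut and epithelia, had 34 of 62 starts inside (54.8%), 33 of them among the 46 genes on chromosome 8. That chromosome was 37.7% covered, and 41.2% of its CpG-poor protein-coding starts lay inside regions. Defb4, Defb14, Defa5 and Defa17 were wholly covered. Because alpha defensin genes are near-identical copies, reads may be shared between them and the value of a single one is uncertain. Defb40, one of the study's examples for H3K9me2, had no covered base.

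The keratin genes of chromosome 15, where the type II genes lie, had covered bases in 22 of 26 cases, and 16 had their start inside a region, among them Krt5 of basal epidermis and Krt6a, Krt71, Krt73 and Krt4, all wholly covered. On that chromosome, which was 44.1% covered, 44.8% of CpG-poor protein-coding starts lay inside, and 51.3% of protein-coding genes other than Zfp genes had a covered base. The 27 other keratin genes of the broad chromosomes had no covered base. Cytochrome P450 genes, whose products oxidise drugs, steroids and fatty acids mainly in liver and adrenal gland, had 24 of 59 starts inside (40.7%). The steroid hydroxylase genes Cyp11b1 and Cyp11b2 and 7 Cyp2d genes of chromosome 15 were wholly covered, as were Cyp3a11, Cyp3a41a, Cyp3a41b and Cyp3a44 on chromosome 5, while the Cyp2c genes of chromosome 19 that had covered bases were covered in part, at 2.10% to 60.9%.

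Cell adhesion and matrix genes were covered to unlike extents. Cadherin genes had 7 of 18 starts inside (38.9%), including Cdh1 of epithelia (17.0% of the body), Cdh5 of endothelium (63.3%), Cdh6 (98.4%), Cdh4 (81.3%) and Cdh23 (71.7%). On chromosome 8, which was 37.7% covered, 4 of 8 cadherin starts lay inside. Cdh11, the cadherin of mesenchymal cells, had 68.7% of its body and its start covered. Among collagen genes 5 of 24 starts and 9 of 24 ends lay inside, with Col6a4, Col6a5, Col6a6, Col13a1 and Col22a1 covered at the start. Col6a4, Col6a5 and Col6a6 are neighbours on chromosome 9, which was 13.9% covered, and had 72.3% to 79.7% of their bodies covered. Col13a1 and Col22a1 lie on chromosomes 10 and 15, which were 58.8% and 44.1% covered.

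Olfactory receptor genes had 116 of 752 starts inside on the broad chromosomes (15.4%), but this was mainly by chromosome. On chromosome 10, 69 of 70 were covered at the start, and on chromosome 15, 8 of 9, where the chromosomes themselves were 58.8% and 44.1% covered. On chromosome 2, 6 of 294 were, and on chromosome 9, 2 of 132. The window chr10:129000001-130000000, with 52 protein-coding starts, was 97.4% covered and 48.5% soft-masked. Hox genes had 3 of 28 starts inside, Hoxd9, Hoxd10 and Hoxc9. The 8 vomeronasal receptor genes of chromosome 10 were all covered at the start. Of the other lists on the broad chromosomes, starts lay inside for 15 of 66 vomeronasal receptor, 33 of 216 solute carrier, 13 of 121 Tmem, 3 of 26 keratin-associated protein, 2 of 12 UDP glucuronosyltransferase and 0 of 5 serpin genes.

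**Figure D5:**
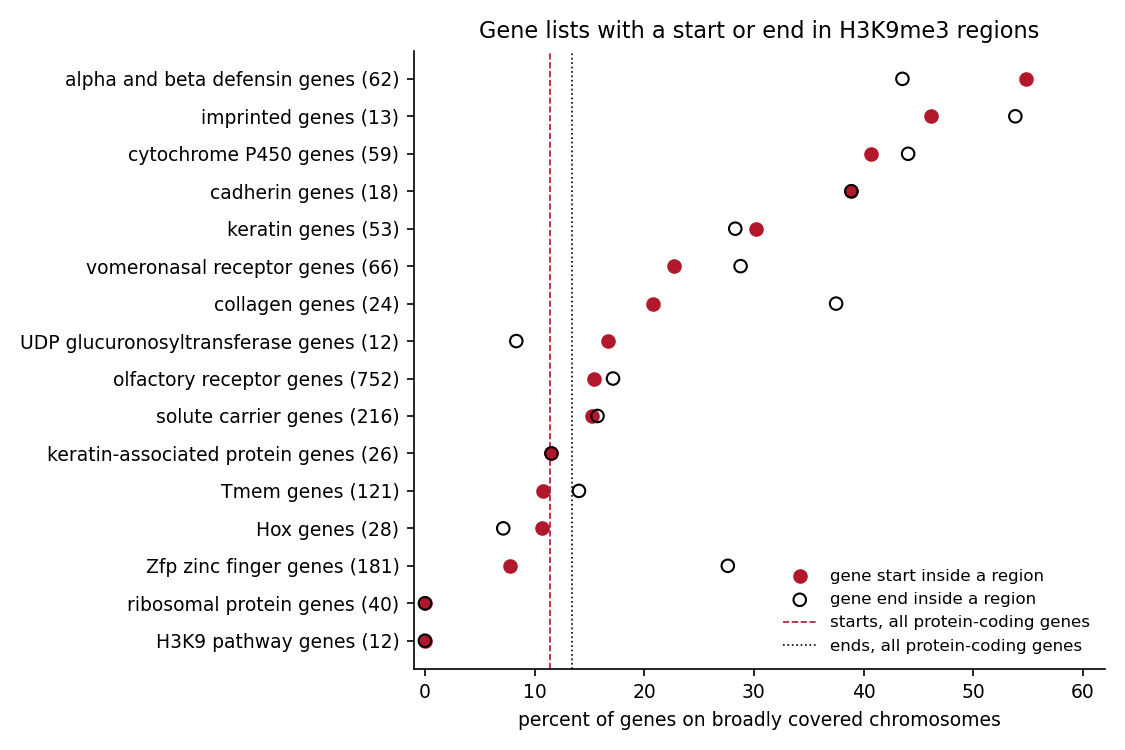
Percent of the genes of each list on broadly covered chromosomes whose start (red dots) or end (open circles) lies inside an H3K9me3 region, with the number of genes in parentheses, for lists of at least 10 genes. Vertical lines mark all protein-coding genes of these chromosomes, at 11.4% for starts (dashed) and 13.4% for ends (dotted). Defensin starts stand at 54.8%, ribosomal protein and H3K9 pathway genes at 0%, and Zfp genes at 7.73% for starts and 27.6% for ends.

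Genes with Zfp symbols, most of which encode zinc finger proteins, were covered more often at their ends than at their starts. On the broad chromosomes 14 of 181 starts (7.73%) and 50 of 181 ends (27.6%) lay inside regions. All 6 Zfp genes of chromosome 10 had covered bases and none had a covered start. Of the other protein-coding genes of chromosome 10, 73.7% had a covered base, and 50.9% of all its protein-coding ends lay inside. There Zfp433, Zfp781, Zfp873 and Zfp938 had 86.1% to 92.3% of their bodies and their ends covered. On chromosome 17, 11 of 46 ends and no start lay inside, where 12.7% of all protein-coding ends did. Its Zfp genes had 10.2% of their bases covered, against 22.0% for its other protein-coding genes. Zfp960 (85.7% of the body) and Zfp97 (69.2%) stood far above that share, while Zfp820 and Zfp995, also covered at the end, had 9.92% and 3.07%. On chromosome 8 there were 14 ends and 7 starts among 24 genes, where 21.4% of all protein-coding ends and 19.2% of starts lay inside. Zfp869, Zfp709, Zfp882 and Zfp612 were wholly covered.

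Chromosome 4 went the other way. Of its 30 Zfp genes 18 had covered bases and 11 had their start inside, against 3.55% of its other protein-coding genes with any covered base. Zfp986, Zfp985, Zfp984, Zfp987 and Zfp534, in the cluster near the end of the chromosome, had 92.3% to 99.4% of their bodies covered. The windows chr4:146000001-147000000 and chr4:147000001-148000000, which hold 6 and 9 Zfp genes, were 65.2% and 45.8% covered on a chromosome with 3.96% in all. Chromosome 7 has more Zfp genes, 92, and 2 of them had covered bases. They were Zfp536 (0.498%) and Zfp936, with 68.6 of 77.9 kb (88.1%) and its end but not its start. Zfp936 is the paper's example of a promoter with H3K9me3. The paper counted peaks up to 1 kb from a transcription start, whereas the start here is the first base of the annotated gene.

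Imprinted genes, of which one parental copy is silenced, differed in how much of their length was covered. Of 23 such genes at germline differentially methylated regions, 13 lay on broad chromosomes and 6 of these (46.2%) had their start inside a region: Plagl1, Grb10, Nnat, Nespas, Peg13 and Rasgrf1. Of their bodies 93.7% was covered for Plagl1, 100% for Peg13, 88.9% for Nnat, 32.7% for Rasgrf1, 11.5% for Grb10 and 4.83% for Nespas. On the broad chromosomes 11.4% of protein-coding starts and 17.7% of all annotated gene starts lay inside. Plagl1 and Peg13 lie on chromosomes 10 and 15, which were 58.8% and 44.1% covered. Nnat and Nespas lie on chromosome 2, Rasgrf1 on 9 and Grb10 on 11, which were 6.32%, 13.9% and 8.88% covered. The other 7 on broad chromosomes were Airn, Gnas, Igf2r, Kcnk9, Mcts2, Trappc9 and Zrsr1. Airn and Igf2r, which overlap on opposite strands, had their ends covered, with 35.9% and 5.27% of their bodies. Trappc9 and Kcnk9, neighbours of Peg13 on chromosome 15, were covered over 70.9% and 99.2% of their bodies. Gnas was covered over 13.2%, and Mcts2 and Zrsr1 had no covered base. Of the 10 on sparse chromosomes none had its annotated start inside, but Mest had 4.5 kb and Peg3 had 6.75 kb of covered body. The 8 others, H19, Impact, Inpp5f, Kcnq1ot1, Meg3, Nap1l5, Peg10 and Snrpn, had none.

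For Mest the covered stretch held a promoter within the gene. The RefSeq windows at chr6:30737800-30738099 and chr6:30737803-30738102 lay wholly inside a region while the window of the upstream start did not. The hexamer TGCCGC, which the zinc finger protein ZFP57 recognises in methylated form at imprinted loci, was searched on both strands (TGCCGC or GCGGCA), and the matches are capitalised below because these windows lie wholly inside regions. All are RefSeq promoter windows of GRCm38.p6 on the strand of the gene: Plagl1 at chr10:13090582-13090881 (plus), Grb10 at chr11:12037371-12037670 (minus), Nnat at chr2:157559828-157560127 (plus) and Mest at chr6:30737800-30738099 (plus).
Plagl1: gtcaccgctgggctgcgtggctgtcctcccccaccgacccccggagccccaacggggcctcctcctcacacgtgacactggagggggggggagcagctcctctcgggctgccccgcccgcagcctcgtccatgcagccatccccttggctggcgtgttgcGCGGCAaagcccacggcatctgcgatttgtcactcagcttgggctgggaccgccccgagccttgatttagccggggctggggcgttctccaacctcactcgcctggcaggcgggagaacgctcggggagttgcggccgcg
Grb10: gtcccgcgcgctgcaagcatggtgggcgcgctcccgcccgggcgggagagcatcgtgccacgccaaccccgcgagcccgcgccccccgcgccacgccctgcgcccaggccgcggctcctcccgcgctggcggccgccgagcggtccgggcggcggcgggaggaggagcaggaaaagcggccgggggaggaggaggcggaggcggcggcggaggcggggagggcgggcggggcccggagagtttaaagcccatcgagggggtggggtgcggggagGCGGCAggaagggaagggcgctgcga
Nnat: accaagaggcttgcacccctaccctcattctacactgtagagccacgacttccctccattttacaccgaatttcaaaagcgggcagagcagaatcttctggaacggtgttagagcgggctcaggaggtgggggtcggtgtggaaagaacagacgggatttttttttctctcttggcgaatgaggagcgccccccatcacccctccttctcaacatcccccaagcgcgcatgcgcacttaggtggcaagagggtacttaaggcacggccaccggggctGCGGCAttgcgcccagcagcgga
Mest: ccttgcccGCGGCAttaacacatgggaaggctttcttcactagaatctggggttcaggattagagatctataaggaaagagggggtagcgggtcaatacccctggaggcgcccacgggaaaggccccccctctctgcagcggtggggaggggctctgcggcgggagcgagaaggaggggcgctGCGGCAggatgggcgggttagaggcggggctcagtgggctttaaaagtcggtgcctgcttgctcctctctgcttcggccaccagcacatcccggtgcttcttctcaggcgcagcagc
The hexamer stood in 3813 of all 32851 promoter windows (11.6%), in 6.51% of those inside regions on broad chromosomes and in 12.8% of those outside. The window of Rasgrf1 and a further window of Grb10, also inside regions, held none, and windows of Mcts2, Meg3, Nap1l5 and Snrpn outside regions held 1 or 2. A match is a description of the letters and not a binding site.

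Genes that the study gives as examples or controls were placed as follows. Nkx6-1 and Bmp2, a growth factor gene on chromosome 2, had their starts inside regions, with 47.3% and 59.1% of their bodies. Cacna1i had 20.1% of its body and its end covered. Tlr3 and Cdk1 had short covered stretches at the end, 0.336 and 0.105 kb, and Olfr1431 had 0.75 kb. Actb, Bbs9, Cdkn1a, Defb40, Irf7, Pou5f1, Tcap, Treml4 and Zfp180 had no covered base. In the paper, Nkx6-1 and Bmp2 are promoter examples for H3K9me3. Tcap, Cacna1i and Bbs9 are examples for H3K9me1, and Defb40, Olfr1431 and Treml4 for H3K9me2. Tlr3, Irf7, Cdkn1a and Cdk1 are its examples of expression. In its ChIP-qPCR Actb was the negative control, and Zfp180 and Pou5f1 (Oct4) were among the positive controls. Signal at a qPCR locus and a called region are unlike measures.

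Few genes of the fibroblast list had covered bases. Of 12 (Col1a1, Col1a2, Col3a1, Col5a1, Col6a1, Thy1, Vim, Fn1, Pdgfra, Pdgfrb, S100a4 and Fbn1) none had its start inside, and Col6a1 alone had covered bases, 3.46 kb at its end. Of the 12 genes 7 lay on broad and 5 on sparse chromosomes. There 11.4% and 1.62% of protein-coding starts lay inside, so a count of 0 is near that background. The shares of protein-coding genes with any covered base were 27.0% and 4.64%. Cdh11 and Col6a2, genes of mesenchymal cells and matrix outside this list, had 68.7% and 52.0% of their bodies covered. Of 14 genes of other cell types 3 had their start inside: Cd3e of T cells (58.7% of the body), Syt1 of neurons (63.5%) and Zfp42 of pluripotent cells (30.8%). All 3 were among the 8 on broad chromosomes, and none of the 6 on sparse chromosomes had a covered base. Syt1 lies on chromosome 10, which was 58.8% covered. Both lists are small, and a difference between them was not tested. The neuronal genes Rbfox3 and Snap25 had 3.02% and 4.35% of their bodies covered, and the 9 others had no covered base. A list of regions does not measure expression, so the cell type in the label could not be checked against its markers here.

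Along the chromosomes, each divided into 10 equal parts, coverage changed without one common profile. On chromosome 17 the first of these was 71.8% covered and the ninth 8.85%, on chromosome 2 the last was 30.7% and the third 1.26%, and on chromosome 11 the sixth was 18.2% and the ninth 0.561%. On the sparse chromosomes the most covered parts were the last of chromosome 4 (25.2%), the last of chromosome 1 (11.2%), the ninth of chromosome 12 (10.4%) and the second of chromosome 7 (8.23%). The window chr4:153000001-154000000, with Ajap1, was 89.0% covered, and chr12:107000001-108000000, over Bcl11b, a transcription factor gene of T cells and neurons, was 65.3%. The window chr7:22000001-23000000, with 13 Vmn1r pheromone receptor genes, was 57.8% covered and 66.3% soft-masked.

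Regions came close to both ends of most assembled chromosomes. Leaving out chromosome Y, the first region began within 100 kb of the first assembled base, the centromeric side, on 16 of 20 chromosomes, and on 6 it began less than 0.75 kb from it. The last region ended within 100 kb of the last assembled base on 15 of 20. These counts pool both classes of chromosome, and how often other positions lie as near to a region was not computed. The first 100 kb was covered above the chromosome's own level on 14 of 20 chromosomes and the last 100 kb on 10 of 20. Over the first and the last 1 Mb this was so on 11 and 11.

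Gaps between regions were not uniform in genes. On the broadly covered chromosomes there were 4.72 protein-coding starts per Mb in regions, 6.94 in gaps of up to 4.5 kb and 11.8 in gaps of 50.25 kb and more. For CpG-rich starts the values were 1.04, 2.65 and 6.35 per Mb, and for CpG-poor starts they were 2.97, 3.04 and 3.803. On these chromosomes the 70 windows of 1 Mb that were over 75% covered had a median of 2 protein-coding starts, and the 45 with no covered base had a median of 13. These values pool all broadly covered chromosomes, which were 6.32% to 58.8% covered. Values per chromosome were not computed, so differences in gene density between chromosomes can enter them.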

How the data were processed

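Chromatin of MEFs was immunoprecipitated for H3K9me3, sequenced in pairs of samples with matched input, aligned to mm10 (GRCm38) with BWA 0.7.1 and called with histoneHMM, per the study's methods and the submitters' processing notes. The deposited H3K9me3 file gives chromosome, start and end of each region as positions (other, neither counts nor signal). How replicates and input were combined, the threshold and the placing of multiply matching reads are not given in the sources used here. Starts were read as 1-based on the 0.75 kb grid. Genes came from GENCODE M21 and sequence, with soft-masking, from the RefSeq GRCm38.p6 assembly, of the same build. Covered shares used assembled bases. Clusters joined gaps of at most 10 kb. CpG classes used a 500 bp window on each side of a start, with limits of 0.4 and 0.6. Sequence of chromosome 18 entered no word or promoter count. The members, the gene lists, the rule for named genes (the 10 widest regions, 5 clusters with most regions, 5 longest covered and 5 longest uncovered genes, the imprinted, pathway, marker and study lists, and families by symbol) and the classes were chosen with earlier results of these data known. Members of families printed by name were chosen after their values were seen. Results for 1 gene that this rule names are not reported here. Alternatives were other width filters, joining distances, gene sets and chromosome sets. Python 3.11.15, NumPy 2.4.6, pandas 2.3.3 and SciPy 1.17.1 were used, and interval functions were tested on simulated data.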

Additional observations from a re-analysis of the deposited data

How the results depend on the processing

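With 1 pooled list, no replicate could be left out. No paired analysis was possible because the list carries no values of single samples. Of 70 values recomputed under other settings for 14 summary values, 25 stayed close and 45 moved. Close meant within 1.5 times for numbers and total length, at the same bin for the median, and within a Wilson interval for shares. For shares of bases or of length that interval took the number of regions as its count, so its width there is a convention and not a counting error. Keeping regions of at least 5 kb left 14783 regions with a median of 9.75 kb, 30.1% of gaps at most 5 kb (37.0% as reported), 91.9% of the covered length on broad chromosomes, 8.13% of gene starts inside, 9.10% of protein-coding gene bodies covered and 35.9% of covered bases soft-masked. Keeping at least 2 kb gave a median of 6.75 kb and 33.97% of such gaps. Joining up to 1.5 kb gave a median of 6 kb and 25.9%. Joining up to 5 kb gave 17096 regions, a median of 6.75 kb, 91.9% on broad chromosomes and 10.95% of gene bodies (10.2% as reported). Clusters numbered 7183 with gaps of up to 25 kb and 4816 with gaps of up to 50 kb. On broad chromosomes alone 40.1% of gaps, 17.7% of gene starts and 18.96% of gene bodies applied, with 35.5% soft-masked, and on sparse ones 10.996% of gaps and 2.09% of starts. Gene starts inside were 10.9% with 1 kb allowed, 6.72% for starts of any transcript and 6.73% for protein-coding genes, and bodies of all genes were 10.7% covered. Regions of 1 or 2 bins were 40.6% soft-masked. Of alternatives chosen after seeing the data, leaving out chromosome 10 gave 4.85% of CpG-rich and 14.5% of CpG-poor starts inside (5.198% and 18.9% as reported), regions of at least 5 kb gave 4.22% and 16.8%, and a soft-masked share of at least 90% was met by 33.9% of sparse-chromosome regions.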
